A study of Homo sapiens with 8 samples.

Results

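The E2F transcription factors and the retinoblastoma proteins that bind them were followed through the RNA of CYP3A4-overexpressing HepG2 cells. The members were the 10 genes E2F1 to E2F8, RB1, and RBL1, found by matching Ensembl identifiers to gene symbols, out of 60230 genes in the table. All 10 were among the 13404 genes with enough counts to be tested. HepG2 is a human hepatocellular carcinoma line, and the cells carried an added CYP3A4, the main drug-oxidizing cytochrome P450 of the liver. The DMSO control, like the treated cells, was this 1 transfected line, grown in blasticidin. The 8 samples formed 4 groups of 2 replicates. Control cells received 0.2% DMSO, and the other groups received compound 4, compound 5, or compound 6 for 24 h, each at its own half-maximal inhibitory concentration. The doses were set by effect and not matched in molar terms. All 3 compounds are bisphenol antioxidants of the plastics industry. Compounds 4 and 6 share a methylene bridge and differ in the group beside each hydroxyl, which is tert-butyl in compound 4 and cyclohexyl in compound 6. Compound 5 has a methyl group on the bridge and more tert-butyl groups. The comparisons ask how each compound changed the activating and repressing members at the RNA level.

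E2F proteins bind DNA, mostly as partners of a DP protein, and control genes needed to leave G1 and copy DNA. E2F1, E2F2, and E2F3 are classed as activators, E2F4 and E2F5 as canonical repressors, E2F6 as a repressor in a Polycomb complex, and E2F7 and E2F8 as atypical repressors that bind DNA without DP. RB1 and RBL1 are pocket proteins, which hold E2F proteins inactive or repressing until cyclin-dependent kinases phosphorylate them. Several E2F genes are themselves E2F targets, so their RNA changes through the cell cycle in dividing cells.

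Library totals ran from 9472261 to 13308975 counts, and 3 counts corresponded to 0.225 to 0.317 CPM, the unit of counts scaled to an equal library total. All 6 hepatocyte markers were present, with a summed level of 26900 to 36900 CPM that was highest in DMSO. ALB, at 12561 to 18489 CPM, was the largest part. APOB and HNF4A did not follow the sum. APOB was at 5679 and 7468 CPM in DMSO, 6521 and 2889 CPM under compound 4, and 8630 and 6920 CPM under compound 5. HNF4A was at 362 and 365 CPM in DMSO and 406 and 364 CPM under compound 4. Mitochondrial transcripts took 4.91% and 5.12% of counts in DMSO and 5.31% to 6.21% in the treated libraries, and the 10 highest genes 9.34% and 9.4% against 9.77% to 10.6%. The part of these shifts in the results below was not tested. Of 5 fibroblast markers 3 were at 0 in every library, and in the leukocyte list PTPRC and CD3E, which define leukocytes and T cells, were at 0. CD68, a macrophage marker of the same list, was at 27.2 to 57.6 CPM, highest with compound 4. The leukocyte list summed to 1890 to 3030 CPM, of which LYZ made up 1854 to 2993 CPM, and the endothelial list to 0.864 to 2.06 CPM with KDR at 0. In bulk RNA, fewer cells in the phase that expresses a gene and less RNA per cell cannot be told apart. The labels give replicates 1 and 2 as day 1 and day 2 but do not say that they were separate cultures. The p-values thus measure the spread between these samples, which holds any day difference and may be technical.

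The upstream 250 bases of members are shown because several of these genes carry E2F sites in their own promoters, and the members below include the activators, a pocket protein, and the gene with the largest fall. Sequences are from RefSeq on GRCh38.p14, written 5′ to 3′ on the strand of the gene and ending just before its start. Capitals mark exact matches to the E2F letters TTTGGCGC, TTTCGCGC, TTTCCCGC, or TTTGCCGC on either strand and, in E2F3, also the letters TTTGAA of the cell cycle homology region.
E2F1, chr20:33686386-33686635, minus strand: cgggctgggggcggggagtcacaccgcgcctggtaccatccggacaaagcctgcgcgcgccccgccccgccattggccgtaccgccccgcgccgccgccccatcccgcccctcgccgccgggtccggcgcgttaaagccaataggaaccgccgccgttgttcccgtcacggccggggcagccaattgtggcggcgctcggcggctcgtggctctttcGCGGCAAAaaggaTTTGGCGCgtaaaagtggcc
E2F2, chr1:23531234-23531483, minus strand: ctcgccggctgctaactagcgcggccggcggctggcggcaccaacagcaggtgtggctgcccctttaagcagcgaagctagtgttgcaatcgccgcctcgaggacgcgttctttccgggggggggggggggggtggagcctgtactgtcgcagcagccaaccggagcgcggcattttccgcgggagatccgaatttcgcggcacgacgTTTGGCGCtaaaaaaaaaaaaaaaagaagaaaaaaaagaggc
E2F3, chr6:20401629-20401878, plus strand: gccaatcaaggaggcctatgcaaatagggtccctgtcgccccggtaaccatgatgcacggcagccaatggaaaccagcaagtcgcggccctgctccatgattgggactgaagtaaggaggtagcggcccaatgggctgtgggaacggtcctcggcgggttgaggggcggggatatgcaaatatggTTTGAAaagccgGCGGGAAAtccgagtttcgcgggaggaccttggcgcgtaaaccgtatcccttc
RBL1, chr20:37095998-37096247, minus strand: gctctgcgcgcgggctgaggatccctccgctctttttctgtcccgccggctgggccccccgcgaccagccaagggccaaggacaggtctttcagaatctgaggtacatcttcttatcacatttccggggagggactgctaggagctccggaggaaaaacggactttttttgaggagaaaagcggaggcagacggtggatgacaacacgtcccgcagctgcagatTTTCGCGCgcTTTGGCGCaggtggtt
E2F7, chr12:77065570-77065819, minus strand: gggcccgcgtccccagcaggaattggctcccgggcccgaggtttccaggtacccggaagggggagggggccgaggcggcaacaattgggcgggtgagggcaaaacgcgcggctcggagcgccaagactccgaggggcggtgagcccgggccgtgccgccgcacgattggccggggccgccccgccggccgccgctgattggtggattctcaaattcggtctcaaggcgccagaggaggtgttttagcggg

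E2F1 and RBL1 each held 2 E2F matches, and E2F2 and E2F3 held 1 each. In all, 4 of the 8 members with an entry held a match, against 2.79% of 35116 promoters of the same length. No match lay in the windows of E2F4, E2F6, and E2F7, or in that of the second E2F3 start. The entry of RB1 starts inside the gene and is not shown. E2F5 and E2F8 had no entry. The E2F7 and E2F3 windows each held 4 matches to CCAAT and that of E2F1 held 3, a motif present in 32.0% of promoters. The TTTGAA letters were in 13.3% of promoters. These matches are descriptions of the letters and not of binding.

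In the DMSO cells, levels per kilobase of coding transcript were highest for E2F4, at 45.8 ± 1.32 CPM per kb (SD, n = 2), and next for E2F1 at 28.3 ± 1.12 CPM per kb. E2F5 and E2F6 followed at 17.3 ± 0.59 and 11.3 ± 0.516 CPM per kb. RB1 at 9.61 ± 0.206 and RBL1 at 9.39 ± 0.193 CPM per kb differed by less than their spread combined. E2F2 and E2F3 stood lower, at 6 ± 0.263 and 5.02 ± 0.214 CPM per kb. The atypical repressors were lowest, with E2F8 at 2.67 ± 0.525 and E2F7 at 2.22 ± 0.00735 CPM per kb, and the gap between them was within the SD of E2F8. The order of the upper members depends on the length used: per kilobase of merged exons, E2F1 led with 28.3 and E2F4 was second with 26.8 CPM per kb, while E2F3, E2F8, and E2F7 were again last.

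The atypical repressors E2F7 and E2F8 fell the most. E2F7, on chromosome 12 (77021247 to 77065580, GRCh38, minus strand), restrains E2F1 and its target genes. Its level was 12.8 and 12.7 CPM in the DMSO pair, 4.36 and 4.37 CPM under compound 4, 5.77 and 3.93 CPM under compound 5, and 7.72 and 5.11 CPM under compound 6. Every treated sample lay below both DMSO samples. The log2 fold change was -1.55 (SE 0.24) with compound 4 at an edgeR adjusted p of 0.0029. With compound 5 it was -1.40 (SE 0.24), with an edgeR adjusted p of 0.00208. With compound 6 it was -1.01 (SE 0.23), with an edgeR adjusted p of 0.0382. E2F7 was thus the 1 member called with all 3 compounds. Of the 13404 genes tested, 0.686% had a lower fold change than E2F7 with compound 4, 2.62% with compound 5, and 1.39% with compound 6. The compound 6 call for E2F7 was lost with DESeq2, at an adjusted p of 0.0697, and without compound 6 replicate 2, DMSO replicate 1, or DMSO replicate 2, at edgeR adjusted p of 0.362, 0.171, and 0.206.

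E2F8 (chromosome 11, 19224063 to 19241620), the closest relative of E2F7, measured 8.07 and 10.7 CPM in the DMSO pair. It measured 4.62 and 3.74 CPM under compound 4, 3.02 and 4.24 CPM under compound 5, and 7.3 and 3.79 CPM under compound 6. Again no treated sample reached the DMSO range, although compound 6 replicate 1 came close to it. E2F8 fell by 1.17 (SE 0.31) on the log2 scale with compound 4 and by 1.36 (SE 0.31) with compound 5, at edgeR adjusted p of 0.0325 and 0.00944. With compound 6 the log2 fold change was -0.79 (SE 0.30), and the edgeR adjusted p of 0.175 missed the threshold. It passed without the filter on low counts, at 0.0162 by edgeR. Over fits without 1 library the compound 6 change ranged from -1.28, without compound 6 replicate 1, to -0.36. Against the DMSO mean, compound 6 replicate 1 was at -0.34 and replicate 2 at -1.26. The compound 4 call was lost without DMSO replicate 1 (edgeR adjusted p 0.0665), DMSO replicate 2 (0.246), or compound 4 replicate 2 (0.12). The compound 5 call was lost without DMSO replicate 2 (edgeR adjusted p 0.0826) or compound 5 replicate 1 (0.0849). Without replicate 1 of compounds 4 and 5, the libraries that each merge a pair of sequencing indices, E2F8 had edgeR adjusted p of 0.059 and 0.0623.

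**Figure D1:**
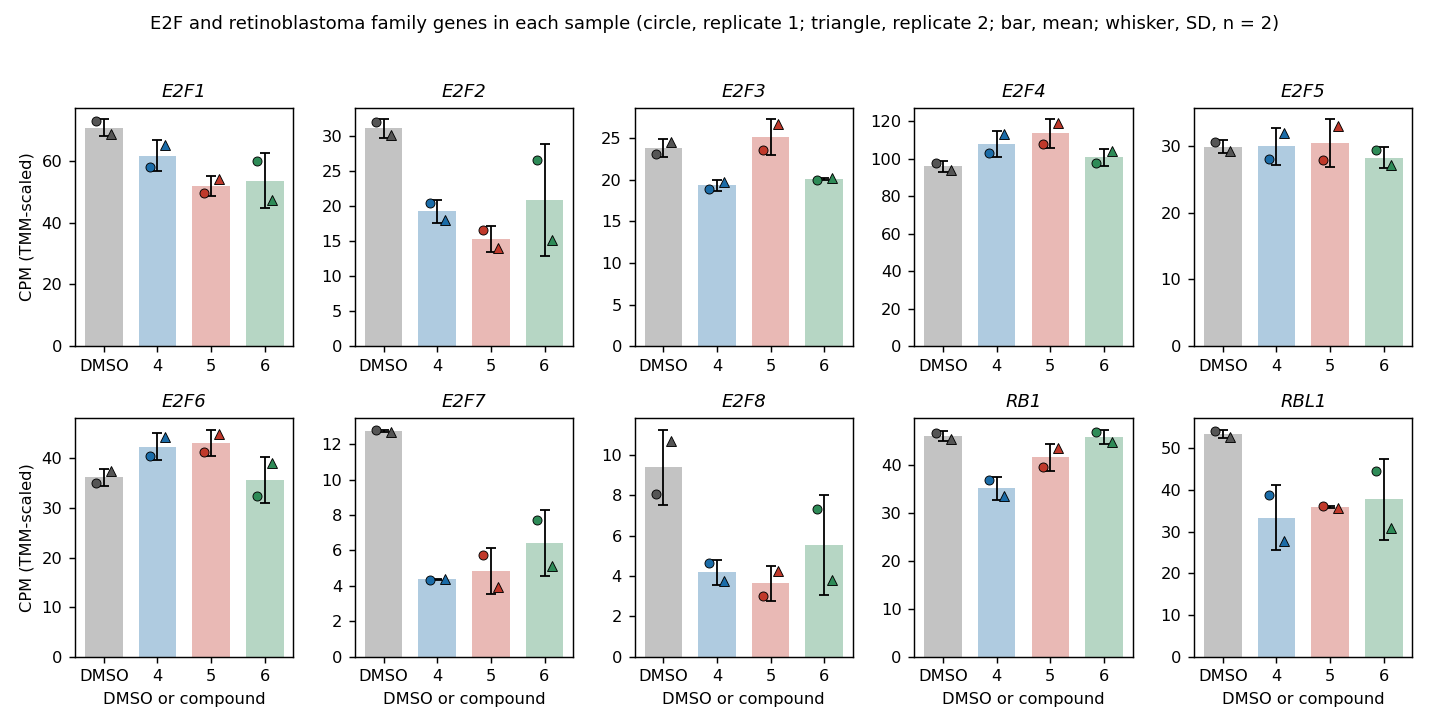
CPM of the 10 members in each sample (y axis, scaled to library size by TMM) for DMSO and compounds 4, 5, and 6 (x axis), with circles for replicate 1, triangles for replicate 2, bars for the mean, and whiskers for the SD of 2 samples. E2F7 lies at 12.8 and 12.7 CPM in the DMSO pair and at 7.72 CPM or less in all treated samples, and compound 6 replicate 1 sits nearer to DMSO than replicate 2 for E2F1, E2F2, E2F7, E2F8, and RBL1.

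Among the activators, E2F1 and E2F2 fell with compound 5, and in the fit of all 4 groups no activator was called with compounds 4 or 6. E2F2 (chromosome 1, 23506430 to 23531220), whose promoter carries 1 match, measured 32.1 and 30.2 CPM in the DMSO pair. It measured 20.4 and 18.1 CPM under compound 4, 16.6 and 14 CPM under compound 5, and 26.6 and 15.2 CPM under compound 6. All treated samples were below DMSO, and the compound 6 replicates were the furthest apart. E2F2 fell by 1.03 (SE 0.22) on the log2 scale with compound 5, with an edgeR adjusted p of 0.00675, which rose to 0.0571 without compound 5 replicate 2. The log2 fold change was -0.69 (SE 0.22) with compound 4 and -0.59 with compound 6, at edgeR adjusted p of 0.0626 and 0.158. The compound 4 value passed with the replicate block (-0.70, edgeR adjusted p 0.0329), without the filter on low counts (0.000576), with the compared groups alone (0.0176), and without compound 6 replicate 1 or 2 (0.0136 and 0.0135). The compound 6 value passed without the filter (edgeR adjusted p 0.00926). Over fits without 1 library it ranged from -1.01, without compound 6 replicate 1, to -0.22. Against the DMSO mean, compound 6 replicate 1 was at -0.23 and replicate 2 at -1.03.

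E2F1 (chromosome 20, 33675683 to 33686404), which drives S phase genes and can also induce apoptosis genes, measured 72.9 and 68.9 CPM in the DMSO pair. It measured 58.2 and 65.3 CPM under compound 4, 49.6 and 54.3 CPM under compound 5, and 60 and 47.4 CPM under compound 6. The treated samples were all below DMSO. E2F1 fell by 0.45 (SE 0.13) on the log2 scale with compound 5, with an edgeR adjusted p of 0.0272. The log2 fold change was -0.20 with compound 4 and -0.40 with compound 6, at edgeR adjusted p of 0.366 and 0.111. Over fits without 1 library the compound 6 value ranged from -0.55, without compound 6 replicate 1, to -0.23. The compound 5 call was lost without either DMSO replicate or either compound 5 replicate, at edgeR adjusted p between 0.0751 and 0.192, and without replicate 1 of compounds 4 and 5, at 0.118.

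E2F3 (chromosome 6, 20401906 to 20493715), the third activator, was not called with any compound. It measured 23.1 and 24.6 CPM in the DMSO pair, 18.9 and 19.8 CPM under compound 4, 23.6 and 26.7 CPM under compound 5, and 20 and 20.2 CPM under compound 6. Its samples with compounds 4 and 6 lay below DMSO and those with compound 5 overlapped it. The log2 fold changes were -0.30, 0.08, and -0.25, at edgeR adjusted p of 0.154, 0.676, and 0.315.

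The repressors E2F4, E2F5, and E2F6 were not called with any compound by edgeR in the fit of all 4 groups or by DESeq2. At an unadjusted p under 0.05, 0 of the 3 passed with compounds 4 and 6, where 27% and 20% of all genes did, and 1, E2F4, with compound 5, where 41.5% did. E2F4 (chromosome 16, 67192169 to 67198918), the main repressor E2F of resting cells, measured 97.9 and 93.9 CPM in the DMSO pair and 108 and 119 CPM under compound 5. Its log2 fold change of 0.25 had an edgeR adjusted p of 0.103, and of 0.0385 when the fit held those groups alone. With compound 4 it measured 103 and 113 CPM, and with compound 6 97.7 and 104 CPM. E2F6 (chromosome 2, 11444375 to 11466177) measured 35 and 37.4 CPM in the DMSO pair, 40.4 and 44.3 CPM under compound 4, 41.2 and 45 CPM under compound 5, and 32.4 and 39 CPM under compound 6. Its value is uncertain, since 14.7% of its 31-base stretches also occur in other transcripts, led by its pseudogenes. E2F5, which like E2F4 lacks the nuclear import signal of the activators, ranged from 27.1 to 33 CPM over all samples, and its groups overlapped. Its log2 fold changes were 0.01, 0.03, and -0.08 with compounds 4, 5, and 6.

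Of the pocket proteins, RBL1 fell with compounds 4 and 5, and RB1 was called with compound 4 at the edge of the threshold. RBL1 (chromosome 20, 36996349 to 37095995), known as p107, pairs mainly with E2F4 and E2F5. It measured 54.1 and 52.6 CPM in the DMSO pair, 38.8 and 27.8 CPM under compound 4, 36.1 and 35.7 CPM under compound 5, and 44.6 and 30.9 CPM under compound 6. No treated sample reached the DMSO values. RBL1 fell by 0.68 (SE 0.18) and 0.57 (SE 0.18) on the log2 scale with compounds 4 and 5, at edgeR adjusted p of 0.0362 and 0.0402. With compound 6 the log2 fold change was -0.51, with an edgeR adjusted p of 0.153. Over fits without 1 library it ranged from -0.76, without compound 6 replicate 1, to -0.25. Against the DMSO mean, compound 6 replicate 1 was at -0.26 and replicate 2 at -0.79. The compound 6 change passed without the filter on low counts, at an edgeR adjusted p of 0.0132. The compound 4 call was lost without DMSO replicate 1 or 2, at log2 fold changes of -0.66 and -0.70. It was also lost without compound 5 replicate 1 or 2, at -0.67 and -0.68. Without compound 4 replicate 2 it was lost with a smaller change of -0.44. The compound 5 call was lost without any 1 DMSO or compound 5 library, at edgeR adjusted p between 0.13 and 0.165, and without replicate 1 of compounds 4 and 5, at 0.0678.

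RB1 (chromosome 13, 48303726 to 48599436), the founding tumor suppressor of the family, measured 46.8 and 45.4 CPM in the DMSO pair and 36.9 and 33.5 CPM under compound 4. It measured 39.7 and 43.7 CPM under compound 5 and 47 and 44.9 CPM under compound 6. The compound 4 samples lay lowest, and the compound 6 samples overlapped DMSO. The log2 fold change with compound 4 was -0.39 (SE 0.11), with an edgeR adjusted p of 0.0474. It did not pass with the replicate block (edgeR adjusted p 0.0586), with DESeq2 (0.107), without the filter on low counts (0.069), with the compared groups alone (0.0865), or without replicate 1 of compounds 4 and 5 (0.0643). It passed in 1 of 8 fits that left out a library, with edgeR adjusted p from 0.0444 to 0.198. With compounds 5 and 6 the log2 fold changes were -0.14 and 0.00, at edgeR adjusted p of 0.363 and 0.99.

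Counted together, 4 of 10 members fell with compound 4, where 11.9% of all genes tested were called and 5.42% were called lower. With compound 5, 5 of 10 fell, against 28.1% called and 14.2% called lower. With compound 6, 1 of 10 fell, against 4.4% called and 1.6% called lower. In the fit of all 4 groups no member was called higher with any compound, nor by DESeq2, while 6.5%, 13.9%, and 2.8% of all genes were. Both treated samples lay below both DMSO samples for 7, 6, and 6 members with compounds 4, 5, and 6, as for 27.1%, 37.3%, and 26.6% of all genes. They lay above for 2, 2, and 0 members, as for 27.5%, 32.9%, and 26.3% of all genes. Median log2 fold changes of the 10 members were -0.35, -0.29, and -0.33, beside 0.00, -0.03, and 0.00 over all genes tested. These comparisons share the DMSO samples. In a fit of DMSO and compound 5 alone, 6 members were called, the 5 that fell and E2F4 higher. In that fit 39.5% of all genes were called. With compound 4, fewer members were called without either DMSO replicate, without compound 4 replicate 2, and without either compound 5 replicate. With compound 5, fewer were called without either DMSO replicate or either compound 5 replicate. With both compounds, fewer were called without replicate 1 of compounds 4 and 5. With compound 6, fewer were called without either DMSO replicate or compound 6 replicate 2, and more without compound 6 replicate 1. In each of these fits the share of all genes called moved the same way, so the moves were not particular to the members. With compound 6 the count was 0 with DESeq2 and 4 without the low-count filter, where 5.29% and 6.34% of all genes were called.

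**Figure D2:**
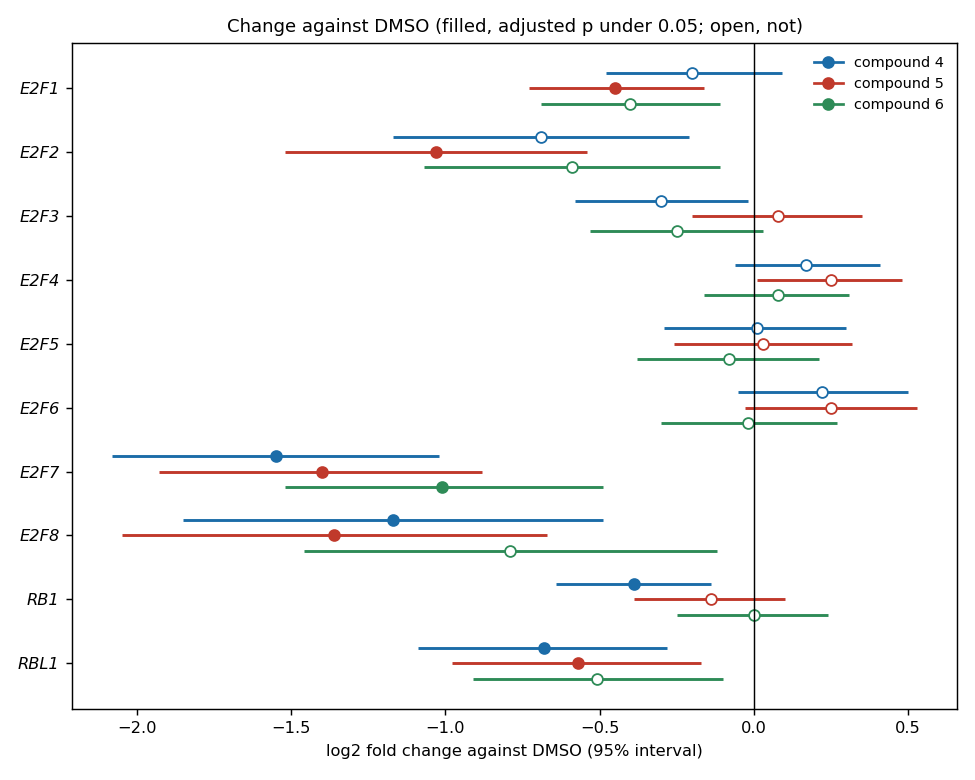
Log2 fold change against DMSO (x axis) of each member (y axis) for compounds 4, 5, and 6, with lines for unadjusted 95% intervals and filled points for an edgeR adjusted p under 0.05. E2F7 and E2F8 lie furthest to the left, and E2F4, E2F5, and E2F6 lie around 0, with log2 fold changes from -0.08 to 0.25.

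The balance of activators against repressors depends on how the members are combined. As the difference of mean log2 CPM, E2F1 to E2F3 minus E2F4 to E2F8, it moved against DMSO by 0.05, -0.02, and -0.06 for compounds 4, 5, and 6. Taken as the ratio of summed CPM, it moved by -0.36, -0.53, and -0.36 on the log2 scale. The compound 6 replicates differed, at 107 against 175 CPM in replicate 1 and 82.8 against 179 CPM in replicate 2. The DMSO pair had 128 against 184 and 124 against 184 CPM. The mean log2 CPM of E2F1 to E2F3 was 5.25 and 5.22 in DMSO and 4.62 to 5 in treated samples. That of E2F7 and E2F8 was 3.37 and 3.57 in DMSO and 2.08 to 2.94 in treated samples. That of E2F4 to E2F6 was 5.57 and 5.55 in DMSO and 5.51 to 5.82 in treated samples. The first and second classes were thus lower in every treated sample, and the third was not. Per kilobase of coding transcript, E2F1 to E2F3 made up 33.5% and 32.9% of the summed E2F level in DMSO and 28% and 27.7% under compound 4. They made up 25.3% and 24.6% under compound 5, and 30.2% and 24.7% under compound 6. E2F4 to E2F6 made up 62.8% and 62.6% in DMSO and 66.8% to 73.8% in the treated samples. E2F7 and E2F8 made up 3.77% and 4.49% in DMSO and 1.5% to 3.1% in the treated samples. The size of these shares depends on the length used. Of summed CPM, not divided by length, E2F1 to E2F3 made up 41% and 40.2% in DMSO and 31.6% to 37.9% in the treated samples. E2F4 to E2F6 then made up 52.3% and 52.2% in DMSO and 56.8% to 65.6% in the treated samples.

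The compounds were also compared with each other, in 3 pairs, with p-values adjusted over the 13404 genes. No member was called in any pair by edgeR or by DESeq2. Over all genes, 13.9% were called between compounds 5 and 4, 9.91% between compounds 5 and 6, and 0.0448% between compounds 4 and 6. Without compound 6 replicate 2, E2F2 was lower with compound 5 than with compound 6 (log2 difference -0.79, edgeR adjusted p 0.0294). At an unadjusted p under 0.05, 1 member passed in each pair, and 32%, 27.5%, and 9.81% of all genes did. E2F3 was higher with compound 5 than with compound 4 by 0.38 on the log2 scale (95% interval 0.10 to 0.66, edgeR adjusted p 0.0679), and than with compound 6 by 0.33 (0.05 to 0.61, edgeR adjusted p 0.127). RB1 was lower with compound 4 than with compound 6, at -0.38 (-0.63 to -0.14, edgeR adjusted p 0.346). For compounds 4 and 6, which differ in tert-butyl against cyclohexyl, the E2F7 difference was -0.54 with an interval from -1.10 to 0.03. For E2F8 it was -0.39, from -1.10 to 0.33. For compounds 5 and 4, which differ at the bridge and in tert-butyl groups, the E2F7 difference was 0.14, from -0.43 to 0.72. All 3 intervals include 0, and a p that misses the threshold does not show that the compounds act alike. Each compound was given at its own inhibitory concentration, so structure and dose cannot be told apart in these pairs.

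**Figure D3:**
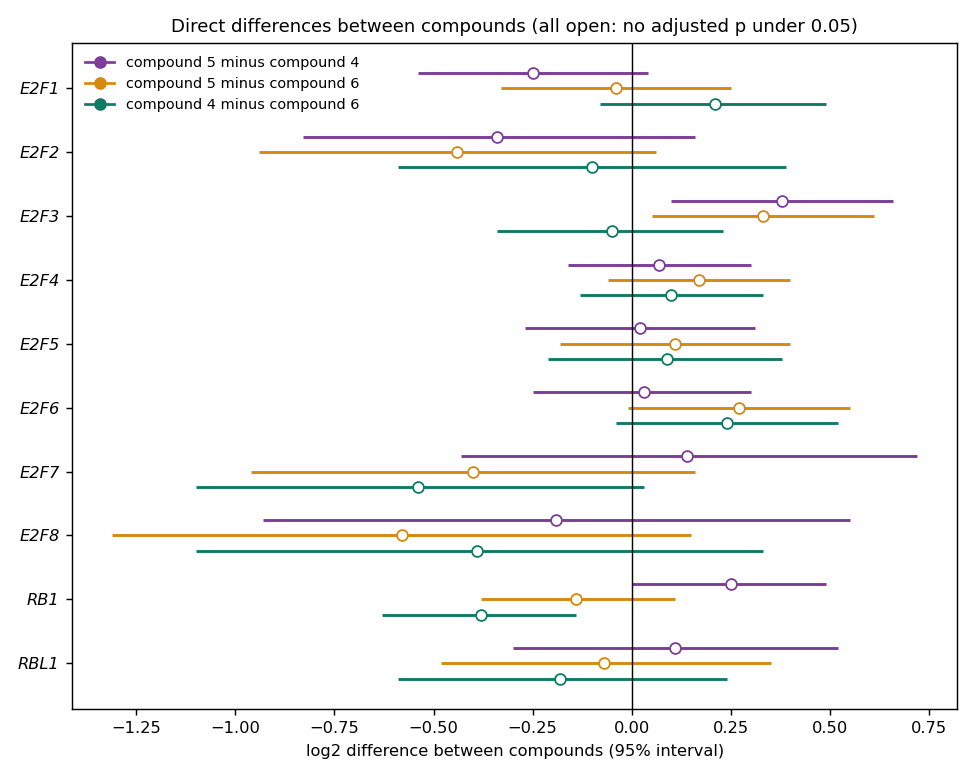
Direct log2 differences between compounds (x axis) for each member (y axis), with unadjusted 95% intervals as lines. No edgeR adjusted p is under 0.05, and the intervals that leave out 0 are those of E2F3 for compound 5 against compounds 4 and 6 and of RB1 for compound 4 against compound 6.

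Most of the listed G1/S genes that E2F proteins control fell with compounds 4 and 5, and fewer were called with compound 6. Of 28 such genes, 21 fell with compound 4, 23 with compound 5, and 9 with compound 6, and none rose by edgeR or DESeq2. The list was chosen with earlier results of these data known, so these counts are descriptions. Of all genes tested, 5.42%, 14.2%, and 1.6% were called lower. Median log2 fold changes were -0.66, -0.61, and -0.58. By library, the median against the DMSO mean was -0.73 and -0.66 for the compound 4 replicates, -0.66 and -0.57 for those of compound 5, and -0.37 and -0.81 for those of compound 6, the same replicate order as for the 5 members above. CCNA2, the S phase cyclin, went from 96.3 and 108 CPM in the DMSO pair to 41.9 and 46.1 CPM under compound 4 (log2 fold change -1.22, edgeR adjusted p 0.00159), and MCM3, of the replicative helicase, changed by -0.50 (edgeR adjusted p 0.0379). With compound 5, POLA2, a subunit of DNA polymerase alpha, was lowest at -1.19, and SLBP, the histone mRNA binding protein, least changed of those called at -0.43, at edgeR adjusted p of 0.00401 and 0.0491. SLBP did not pass with DESeq2, at an adjusted p of 0.0773. With compound 6, TK1, thymidine kinase, fell by 0.81 and MCM2, another helicase subunit, by 0.60 on the log2 scale, at edgeR adjusted p of 0.0382 and 0.0298. The compound 6 count was 4 with the replicate block, 18 with DESeq2, and 22 without the low-count filter. In these settings 3.72%, 5.29%, and 6.34% of all genes were called. The compound 6 count was lower without either DMSO replicate, without compound 6 replicate 2, and without either compound 5 replicate. It was higher without either compound 4 replicate and without compound 6 replicate 1. Counts with compound 4 fell without either DMSO replicate, and those with compound 5 without either DMSO or either compound 5 replicate. Both fell without replicate 1 of compounds 4 and 5. In each of these fits without a library the share of all genes called moved the same way, so the moves were not particular to the G1/S genes.

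Of 11 DP, RBL2, and MuvB genes, 4 fell with compound 4, 3 with compound 5, and 1 with compound 6, and none rose. DESeq2 called 5, 2, and 3 of them lower and none higher. Over all genes tested, edgeR called 11.9%, 28.1%, and 4.4%, and DESeq2 called 11%, 22.6%, and 5.29%. The compound 5 counts of this list, the cyclin and inhibitor list, the apoptosis targets, and the E2F6 partners thus lie near the background. TFDP1, the main DP partner, had log2 fold changes of -0.43, -0.44, and -0.51, called with compound 5 at an edgeR adjusted p of 0.0322. TFDP2, the other DP partner, fell by 0.51 and 0.38 with compounds 4 and 5, at edgeR adjusted p of 0.0121 and 0.0241, and with compound 5 it did not pass with DESeq2, at an adjusted p of 0.0992. TFDP1 passed with DESeq2 also with compounds 4 and 6, at adjusted p of 0.04 and 0.0233. RBL2, the third pocket protein, was not called, at 0.05, 0.19, and 0.16. FOXM1, a driver of mitotic genes, fell by 1.07 with compound 4 and by 0.76 with compound 6, at edgeR adjusted p of 0.00215 and 0.0253. LIN54, the DNA-binding MuvB subunit, fell by 0.47 with compound 4, and MYBL2, which also belongs to the G1/S list, fell by 0.46 with compound 5, at edgeR adjusted p of 0.0266 and 0.0491.

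Upstream, 14 of 16 cyclin, kinase, and inhibitor genes were tested, and CCND2 and CDKN1C were too low. With compound 4, 1 rose and 2 fell, with compound 5, 1 rose and 3 fell, and with compound 6, 1 rose. DESeq2 called 1 lower with compound 4 and otherwise the same numbers. The call it lost was CDC25A, a phosphatase that activates cyclin-dependent kinases, at an adjusted p of 0.0526 against 0.0453 by edgeR, a gene named here after its values were seen. CDC25A, CCNE1, and CCNE2 are also in the G1/S list. The gene that rose was CDKN2B, an inhibitor of CDK4 and CDK6, from 0.689 and 0.658 CPM in the DMSO pair to 2.65 and 3.2 CPM under compound 4, 5.22 and 3.61 CPM under compound 5, and 2.4 and 3.38 CPM under compound 6. Its log2 fold changes were 2.11, 2.69, and 2.10, at edgeR adjusted p of 0.0079, 0.000818, and 0.0189. CDKN2C, a related inhibitor, fell by 0.95 and 1.22 with compounds 4 and 5, at edgeR adjusted p of 0.0403 and 0.00788.

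Of 6 apoptosis targets of E2F1, 1 fell with compound 4, 1 rose and 1 fell with compound 5, and none was called with compound 6 by edgeR (0 at an unadjusted p under 0.05) or DESeq2. CASP8AP2 fell by 0.73 with compound 4, and with compound 5 BBC3, which encodes the BH3 protein PUMA, rose by 0.56 and TP73, a p53 relative, fell by 1.12, at edgeR adjusted p of 0.0306, 0.0419, and 0.0226. With compound 5 DESeq2 called 1 of the 6 higher and 0 lower, so the TP73 call was lost there. Of 10 partners of E2F6 in its Polycomb complex, 1 rose and 1 fell with compound 5. These were MAX, the dimerization partner of MYC and MGA, at 0.60 on the log2 scale, and CBX3, a chromatin protein, at -0.48, with edgeR adjusted p of 0.00856 and 0.014. With compounds 4 and 6 edgeR called 0 of the 10, with 1 and 2 at an unadjusted p under 0.05, and DESeq2 called 0 and 1. Of 11 co-repressors of RB proteins, SUV39H1, a histone methyltransferase, fell by 0.45 with compound 5 and by 0.56 with compound 6, at edgeR adjusted p of 0.0306 and 0.0447, and DESeq2 called 0 in both. That is 1 of 11 for each compound, below the 28.1% of all genes called with compound 5 and beside 4.4% with compound 6. With compound 4 both tools called 0, with 4 at an unadjusted p under 0.05 by edgeR. Of all genes tested, 27% and 20% had an unadjusted p under 0.05 with compounds 4 and 6.

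**Figure D4:**
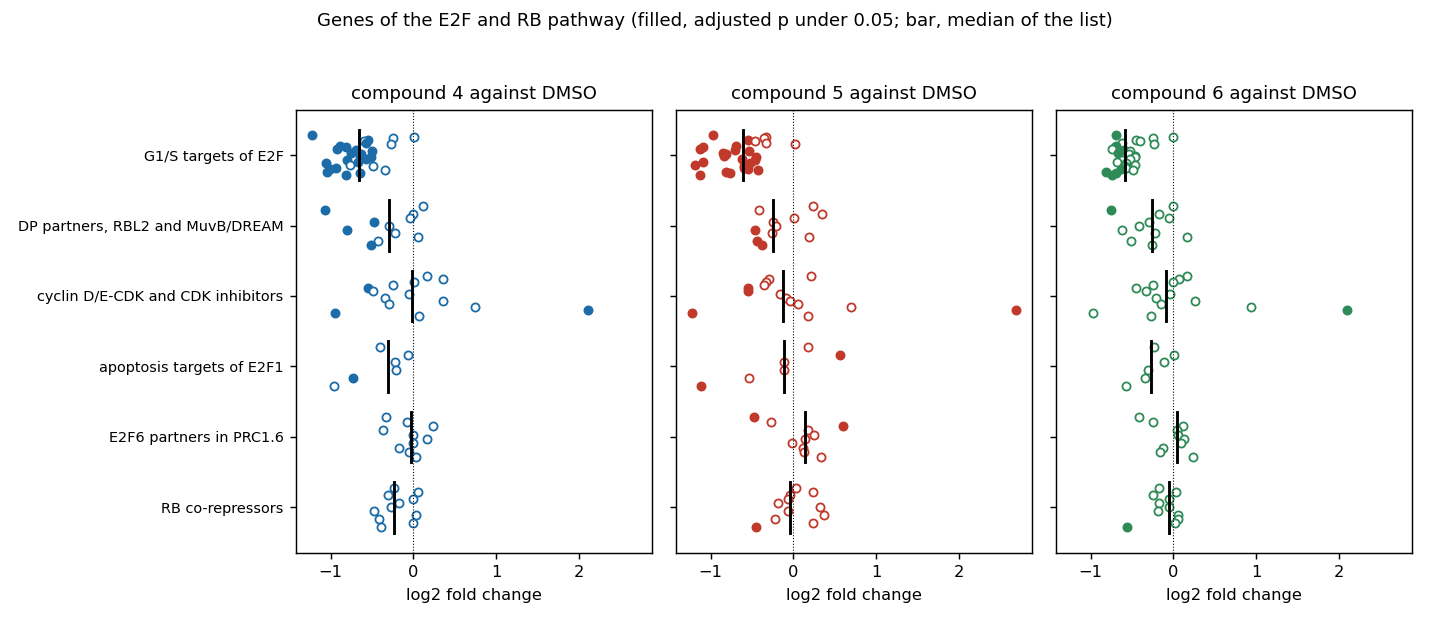
Log2 fold change against DMSO (x axis) of the genes in 6 pathway lists (y axis), with 1 panel per compound, filled points for an edgeR adjusted p under 0.05, and bars for the median of the list. The G1/S targets have medians of -0.66, -0.61, and -0.58, and CDKN2B is the point at 2.10 or more in each panel.

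Across the 8 samples, E2F2, E2F7, E2F8, and RBL1 had the highest correlations with each other among the members that fell. Pearson's r of log2 CPM was 0.89 between E2F2 and E2F7, 0.90 between E2F2 and E2F8, 0.88 between E2F8 and RBL1, and 0.86 between E2F7 and E2F8. E2F1 was at 0.82 with E2F2 and 0.61 with RBL1. RB1 stood further off, at 0.06 with E2F1, 0.41 with E2F2, and 0.62 with E2F7. E2F4 ran opposite, at -0.87 with E2F2 and -0.84 with E2F7, and E2F3 was close to unrelated to E2F1 and E2F2, at 0.06 and -0.03. These samples share their treatment groups and scaling, so the values are descriptions. The genes most like E2F7 over the 8 samples were DBT (r = 0.991) and RAD51AP1 (r = 0.981), and those most like E2F8 were BRIP1 (r = 0.989) and MCM6 (r = 0.983). For E2F1 they were RIMKLA (r = 0.984) and STARD10 (r = 0.976), and for E2F2 MIX23 (r = 0.992) and ZNF385B (r = 0.983). For RBL1 they were ATAD5 (r = 0.98) and DTX4 (r = 0.976), and for RB1 SRGAP2C (r = 0.959), which has near-identical copies, and PAXIP1-AS2 (r = 0.947).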

How the data were processed

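RNA of 8 samples was sequenced from a strand-specific library kit. The authors checked the reads with FastQC 0.12.0 and estimated transcript abundance with Salmon 1.5.0 on GENCODE, then summarized it to genes. The deposited values are expected counts per gene, written as whole numbers and not normalized. Replicate 1 of compounds 4 and 5 each joins a pair of sequencing indices.

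Counts were tested in R 4.3.3 with the quasi-likelihood test of edgeR 4.0.16 (limma 3.58.1), TMM scaling, filterByExpr, 4 groups in 1 fit, and Benjamini-Hochberg adjustment over 13404 genes at 0.05. CPM values use TMM-scaled totals, correlations a prior count of 2, and intervals the 95% level. A permutation test of 2 against 2 samples cannot go below 0.333. Alternatives were DESeq2 1.42.0, other scalings and filters, the replicate block, fits of the groups compared, and fits without 1 library. A fit without replicate 1 of compounds 4 and 5 was chosen after seeing the data. Where a group is left with 1 sample, that sample is assumed to vary like the other groups. The labels' day numbers pair the samples, and deviations of same-numbered samples correlated between -0.083 and 0.16 across groups. Replicates differed beyond sampling noise. Chi-square per degree of freedom was 17.2 for the compound 4 pair, against 5.51 for DMSO, 6.47 for compound 5, and 9.07 for compound 6. The labels give day 1 and day 2, and the methods give 24 h.

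All 10 members are named, with the called gene of highest and lowest change in each list (mean of at least 1 CPM), the 2 genes most correlated with each called member, and TFDP1, TFDP2, and RBL2 whatever their values. Members and lists were chosen with earlier results of these data known. Coordinates and lengths are from GENCODE 29 on GRCh38. Scripts were tested on simulated data.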

Additional observations from a re-analysis of the deposited data

How the results depend on the processing

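Depth and 2 replicates per group limit all calls. The limits given as CPM mark a low count in each library and do not cover the counting error of a measured gene. Among the members, E2F8 and E2F7 had the lowest counts. E2F8 had 33 to 130 counts over all libraries, lowest in compound 5 replicate 1. E2F7 had 50 to 155 counts, lowest in compound 5 replicate 2. E2F7 passed the threshold under all 8 alternatives and all 8 fits without 1 library with compounds 4 and 5, and under 7 and 5 of them with compound 6. Of 10 members called with compounds 4, 5, and 6 over the fits without 1 library, the counts ranged from 1 to 4, 2 to 5, and 0 to 5, and between compounds 5 and 6 from 0 to 1. With compound 6 the count was 0 with DESeq2 and 4 without the filter on low counts. The counts of G1/S targets over those fits ranged from 4 to 23, 11 to 23, and 0 to 24, and with compound 6 were 18 with DESeq2, 22 without the filter, 15 with at least 10 counts in every sample, 17 with only the groups compared, and 4 with the replicate block. Without replicate 1 of compounds 4 and 5, an alternative chosen after seeing the data, members called were 2 and 2 and G1/S targets 13 and 13 with compounds 4 and 5. The cause of these moves was not tested.

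With the replicate block, or pairing by day, RB1 with compound 4 had an edgeR adjusted p of 0.0586 and E2F2 with compound 4 one of 0.0329, and no other call of a member against DMSO changed.

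Scaling by library size alone moved the median of all genes by -0.105 with compound 5. Values that changed sign under some settings were not called in the full fit. With upper-quartile scaling and with library size alone, E2F5 was -0.01 and -0.03 with compound 4 and -0.06 and -0.08 with compound 5, E2F3 was -0.01 and -0.03 with compound 5, and between compounds 5 and 4 E2F5 was -0.05 and -0.04 and E2F6 -0.04 and -0.04. RB1 with compound 6 was 0.01 with at least 10 counts in every sample. Without replicate 1 of compounds 4 and 5, E2F7 and E2F8 between compounds 5 and 4 were -0.15 and 0.18, and E2F1 between compounds 5 and 6 was 0.02.

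Over the fits without 1 library, values that changed sign against DMSO ranged from -0.08 to 0.09 (E2F5, compound 4), -0.01 to 0.19 (E2F3, compound 5), -0.10 to 0.17 (E2F5, compound 5), -0.15 to 0.13 (E2F6, compound 6), and -0.02 to 0.04 (RB1, compound 6). Between compounds 5 and 4 they ranged from -0.11 to 0.16 (E2F5), -0.04 to 0.11 (E2F6), -0.13 to 0.40 (E2F7), -0.46 to 0.04 (E2F8), and -0.10 to 0.37 (RBL1). Between compounds 5 and 6 they ranged from -0.19 to 0.13 (E2F1), -0.79 (edgeR adjusted p 0.0294, without compound 6 replicate 2) to 0.01 (E2F2), -0.02 to 0.23 (E2F5), and -0.30 to 0.22 (RBL1). Between compounds 4 and 6 they ranged from -0.47 to 0.33 (E2F2), -0.01 to 0.18 (E2F5), -0.81 to 0.12 (E2F8), and -0.44 to 0.09 (RBL1).

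The balance of activators against repressors became -0.36, -0.53, and -0.36 when taken as summed CPM. The compound 6 value leans on replicate 2, whose activator sum of 82.8 CPM lay further below DMSO than the 107 CPM of replicate 1. Taken as the difference of mean log2 CPM, over the fits without 1 library it ranged from 0 to 0.1 with compound 4, -0.07 to 0.03 with compound 5, and -0.12 to 0 with compound 6.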
